A study of Mus musculus with 25 samples.

Results

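The protein genes of the cytosolic ribosome were followed across 25 arrays of thymic iNKT cells from mice with and without the Hippo kinases Mst1 and Mst2. The set was chosen by gene symbol alone: every transcript cluster (the array's unit of about 1 gene) with a single symbol made of Rpl or Rps and a number, with or without a final a, l or x, or with the symbol Rplp0, Rplp1, Rplp2 or Rpsa. The rule found 60 genes, each with 1 cluster, among 22206 clusters of the array that are not controls. They comprised 32 genes of the large subunit, 21 of the small subunit, and the stalk genes Rplp0 and Rplp1. The other 5 were paralogues counted apart: Rpl3l, Rpl10l, Rpl39l, Rps4l and Rps27l. Rpl32l was counted with the large subunit.

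iNKT cells (invariant natural killer T cells) carry a semi-invariant receptor for lipids on CD1d, and in the thymus they pass from a dividing state to a resting, NK1.1-positive one. Cells of C57BL/6 mice were enriched with CD8 microbeads and sorted as TCRb+ CD1d tetramer+ CD24-, with stage 1 as CD44- NK1.1-, stage 2 as CD44+ NK1.1- and stage 3 as CD44+ NK1.1+. The stage 1 and 2 groups (S1_S2) held 6 wild-type arrays (WT), 4 without Mst1 (Mst1KO) and 2 without both kinases (dKOMst). The stage 3 groups (S3) held 7 WT arrays, 5 Mst1KO arrays and 1 dKOMst array. The sources used here do not give how the alleles were deleted, the animals' age or whether arrays came from separate animals. The p-values therefore measure only how far these arrays vary, some of which may be technical, with a precision limited by the number of arrays.

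Ribosomal proteins are built with ribosomal RNA into the small subunit, which reads the mRNA, and the large subunit, which joins amino acids, and they are made in near equal amounts because a ribosome holds each core protein once. Their mRNAs are abundant and typically begin with a C followed by a run of pyrimidines, the 5′ terminal oligopyrimidine (TOP) tract, through which mTOR signalling controls their translation. Growing and dividing lymphocytes make many ribosomes, and resting ones make few.

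The arrays were Clariom S, a 1-colour Affymetrix array, and all values are log2 RMA values, so that 1 unit is a doubling. The numbers in the titles fall into 2 runs with a gap between them, a first of 16 arrays with all Mst1KO and a second of 9 arrays with all dKOMst, and WT arrays of both stages lie in each. The labels name no batch, and the run entered each fit as a term. The median negative control lay between 6.19 and 6.59 and the positive controls lay 3.27 to 3.83 above it. Signal from Y-linked genes was between 7.05 and 8.02 on 21 arrays and between 4.74 and 4.84 on the other 4, which were replicates 3 and 4 of both Mst1KO groups. The Stk4 cluster (the gene of Mst1) read 10.18 to 10.74 in WT S1_S2, 9.22 to 9.40 in Mst1KO S1_S2 and 9.63 to 10.27 in dKOMst S1_S2. At S3 it read 9.69 to 10.73 in WT, 9.43 to 10.13 in Mst1KO and 10.08 on the dKOMst array. Stk4 therefore separated Mst1KO from WT at S1_S2 and overlapped elsewhere, and where its probes lie relative to the deletion is unknown here, so the probe signal does not settle the labels. The mean of 6 T cell genes, among them Cd3e and Zbtb16, lay between 11.82 and 12.04 in all groups, and 5 B cell markers averaged no more than 6.85.

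Of the 60 genes, 59 read above the negative controls on all 25 arrays, and 43 had a mean of 12 or above in a table whose highest value is 13.65. Rpl3l, the muscle paralogue of Rpl3, was above the negative controls on only 7 of 25 arrays, with a mean within their range, and no difference is read for it, although it stays in the counts of 60. Values near the top of the scale may be compressed. Ribosomal proteins also have many processed pseudogenes whose transcripts may hybridise to the same probes, so each difference may be understated or mixed. Values of different genes come from different probes and are not set against each other. Because 43 members are so bright, the 230 other clusters with a mean of 12 or above are given as a second background.

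The start of the transcript is shown for the members whose level passed the test in some comparison, since it carries the TOP tract by which this family is regulated. Each window is 30 bases of the sense strand, 10 before the RefSeq start base and 20 from it on (RefSeq, GRCm38.p6), with the tract in capitals where a C within 3 bases of the start was followed by at least 4 C or T. 47 of the 60 genes matched an entry of the promoter table, and 10 of them had passed a test.
Rps27l: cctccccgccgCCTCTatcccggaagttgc
Rpl15: agaaagcCTTCTTCCTTTCCTCTggcggca
Rpl28: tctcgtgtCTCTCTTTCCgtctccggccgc
Rpl31: tcctcgcCTCCCCgtgacccggaagttgta
Rps10: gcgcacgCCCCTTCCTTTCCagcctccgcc
Rps9: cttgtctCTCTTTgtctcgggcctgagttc
Rps26: gcaagccgccggatcctctttcgagtcttg
Rpl10a: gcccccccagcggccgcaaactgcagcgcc
Rpl6: acctcccgtcattgcttatagaccggaagc
Rpl41: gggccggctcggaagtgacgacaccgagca
The windows lie at chr9:66946076-66946105 on the plus strand (Rps27l), chr14:18270967-18270996 on the minus strand (Rpl15), chr7:4792955-4792984 on the plus strand (Rpl28), chr1:39367841-39367870 on the plus strand (Rpl31) and chr17:27635225-27635254 on the minus strand (Rps10). The others lie at chr7:3704031-3704060 on the plus strand (Rps9), chr10:128626487-128626516 on the minus strand (Rps26), chr17:28328461-28328490 on the plus strand (Rpl10a), chr5:121204491-121204520 on the plus strand (Rpl6) and chr10:128549149-128549178 on the minus strand (Rpl41). All 10 span the annotated transcription start, so their last 20 bases are the beginning of the transcript. In Rpl15, Rpl28, Rpl31, Rps10 and Rps9 the capitals begin before the start base, so part of them lies upstream of it. From the start base on, Rpl31 and Rps9 keep too few of these letters to meet the rule for a tract. The tract was found in 18 of 47 members (38.3%), in 3651 of 27025 genes with an entry (13.5%) and in 9 of 69 mitochondrial ribosomal protein genes (13%). With the C required at the annotated start base itself, the shares were 25.5% of members, 3.01% of all genes and 0% of mitochondrial ribosomal protein genes. A window without capitals says only that these letters are not at the annotated start, which can differ from the start used in the cell.

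Taken over the whole family, the level was highest in WT S1_S2 and lowest in dKOMst S1_S2. For each array the deviation of each gene from its own mean over 25 arrays was averaged over the 60 genes. This mean deviation was 0.081 ± 0.035 in WT S1_S2 (SD, n = 6, lowest 0.024, median 0.080, highest 0.122). In Mst1KO S1_S2 it was -0.040, 0.006, 0.014 and 0.037 (mean 0.004 ± 0.032, SD, n = 4), so that 3 of its 4 arrays lay below every WT S1_S2 array. The dKOMst S1_S2 arrays, at -0.120 and -0.138, lay below all WT arrays of either stage. In WT S3 the mean deviation was 0.015 ± 0.026 (SD, n = 7, lowest -0.012, median 0.008, highest 0.049). In Mst1KO S3 the arrays read -0.117, -0.018, -0.057, -0.017 and -0.124 (mean -0.067 ± 0.052, SD, n = 5), all below the lowest WT S3 array. The dKOMst S3 array, at -0.020, also lay just below the WT S3 range.

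**Figure D1:**
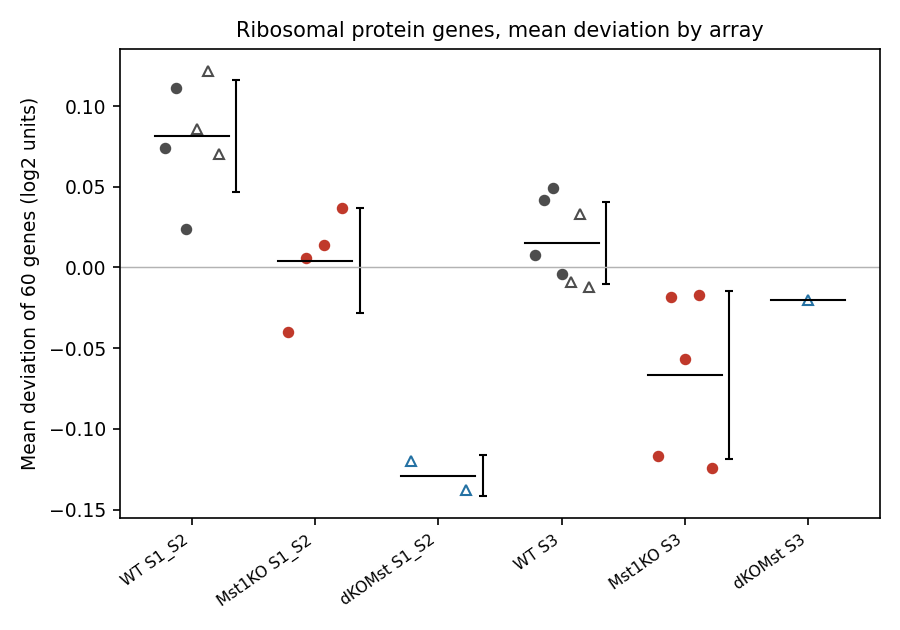
Mean deviation of the 60 ribosomal protein genes from their own means over 25 arrays (y axis, log2 units), by genotype and stage. Filled circles are arrays of the first title number run and open triangles arrays of the second, the line is the group mean and the bar the SD. The WT S1_S2 arrays sit between 0.024 and 0.122 and the dKOMst S1_S2 arrays at -0.120 and -0.138.

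The shift ran through nearly every gene on the lowest arrays. On the dKOMst S1_S2 arrays 55 and 57 of 60 genes were below their own means, and on replicates 1 and 5 of Mst1KO S3 57 each. On the WT S1_S2 arrays 3 to 21 genes were below theirs. The median deviation of the 230 other bright clusters stayed between -0.042 and 0.050 on all arrays, and was 0.016 and 0.002 on the dKOMst S1_S2 arrays. In RNA from a sorted population, fewer cells of a type and less RNA per cell cannot be told apart, and RMA sets the arrays to a common distribution, so these are shares of the signal and not amounts per cell.

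Some ribosomal protein mRNAs were slightly lower in wild-type S3 cells than in wild-type S1_S2 cells. Between WT S1_S2 and WT S3, 9 of 60 genes fell and none rose (limma, adjusted p under 0.05 over all clusters, 13 lower and 0 higher at an unadjusted p under 0.05). Of all clusters 16.9% were called in this comparison, and 8.75% of all clusters were called lower, against 15% of the members. Among the 230 other bright clusters 51 were called lower and 31 higher. Of all clusters 8.18% were called higher. The share of members that fell thus lay above that of all clusters and below that of the other bright clusters. The 9 genes were 7 of 32 of the large subunit, 1 of 21 of the small subunit and the paralogue Rps27l. The fitted difference was below 0 for 50 of 60 genes, with a median of -0.06 against 0.01 over all clusters and -0.03 over the other bright clusters. Over all WT arrays, 9 of 60 genes were lower on every S3 array than on every S1_S2 array and none was higher, against 3.42% of all clusters lower, 3.26% higher and 12.6% of the other bright clusters lower. Within the first run this held for 12 of 60 genes (7.76% of all clusters lower and 7.57% higher), and within the second run for 29 of 60 (12.6% lower and 13.4% higher).

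Rps27l, a paralogue of the small subunit protein Rps27 that is induced by the tumour suppressor p53, fell furthest. It read 11.36 to 11.54 in WT S1_S2 (median 11.42, n = 6) and 10.77 to 11.18 in WT S3 (median 11.04, n = 7). All WT S3 arrays lay below all WT S1_S2 arrays. It fell by 0.43 ± 0.07 (SE) on the log2 scale, with a limma adjusted p of 3.8e-05. The difference was -0.36 within the first run and -0.50 within the second (limma adjusted p 0.023 and 0.017).

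Rps26, a small subunit protein at the channel where mRNA leaves, read 12.29 to 12.48 in WT S1_S2 (median 12.36) and 11.99 to 12.15 in WT S3 (median 12.13). The stages did not overlap, and the gene fell by 0.29 ± 0.05 (limma adjusted p 0.00027). The first run alone gave -0.30 and the second alone -0.29 (limma adjusted p 0.033 and 0.1). Rpl10a, a protein of the large subunit's mobile L1 stalk, read 11.93 to 12.14 in WT S1_S2 (median 12.01) and 11.72 to 11.93 in WT S3 (median 11.82). Its groups met at 11.93 to 2 decimals, and it fell by 0.22 ± 0.06 (limma adjusted p 0.0054). Within the runs, Rpl10a differed by -0.24 and -0.20, without passing the test in either (limma adjusted p 0.11 and 0.25).

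The remaining genes that fell code for large subunit proteins. Rpl15, mutated in some Diamond-Blackfan anaemia, read 12.98 to 13.09 in WT S1_S2 (median 13.00) and 12.81 to 12.88 in WT S3 (median 12.85), a fall of 0.17 ± 0.05 with no overlap (limma adjusted p 0.012). Rpl29, a protein dispensable for life in mice, read 12.02 to 12.25 (median 12.14) and then 11.90 to 12.01 (median 11.96), a fall of 0.18 ± 0.05 with no overlap (limma adjusted p 0.021). Rpl28 read 13.30 to 13.36 in WT S1_S2 (median 13.34) and 13.07 to 13.23 in WT S3 (median 13.18), a fall of 0.16 ± 0.05 with no overlap (limma adjusted p 0.026). These 3 genes were lower on every stage 3 array. Rpl6 read 12.95 to 13.06 (median 12.98) and then 12.70 to 12.96 (median 12.84), a fall of 0.18 ± 0.05 in which the stages overlapped (limma adjusted p 0.015). Rpl31, near the exit of the peptide tunnel, read 13.20 to 13.29 (median 13.23) and then 13.03 to 13.14 (median 13.10), a fall of 0.13 ± 0.05 (limma adjusted p 0.0495). Rpl41, a very short basic peptide, read 13.16 to 13.35 (median 13.31) and then 13.12 to 13.18 (median 13.16), a fall of 0.14 ± 0.05 (limma adjusted p 0.048). Rpl31 separated the stages without overlap while Rpl41 did not.

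**Figure D2:**
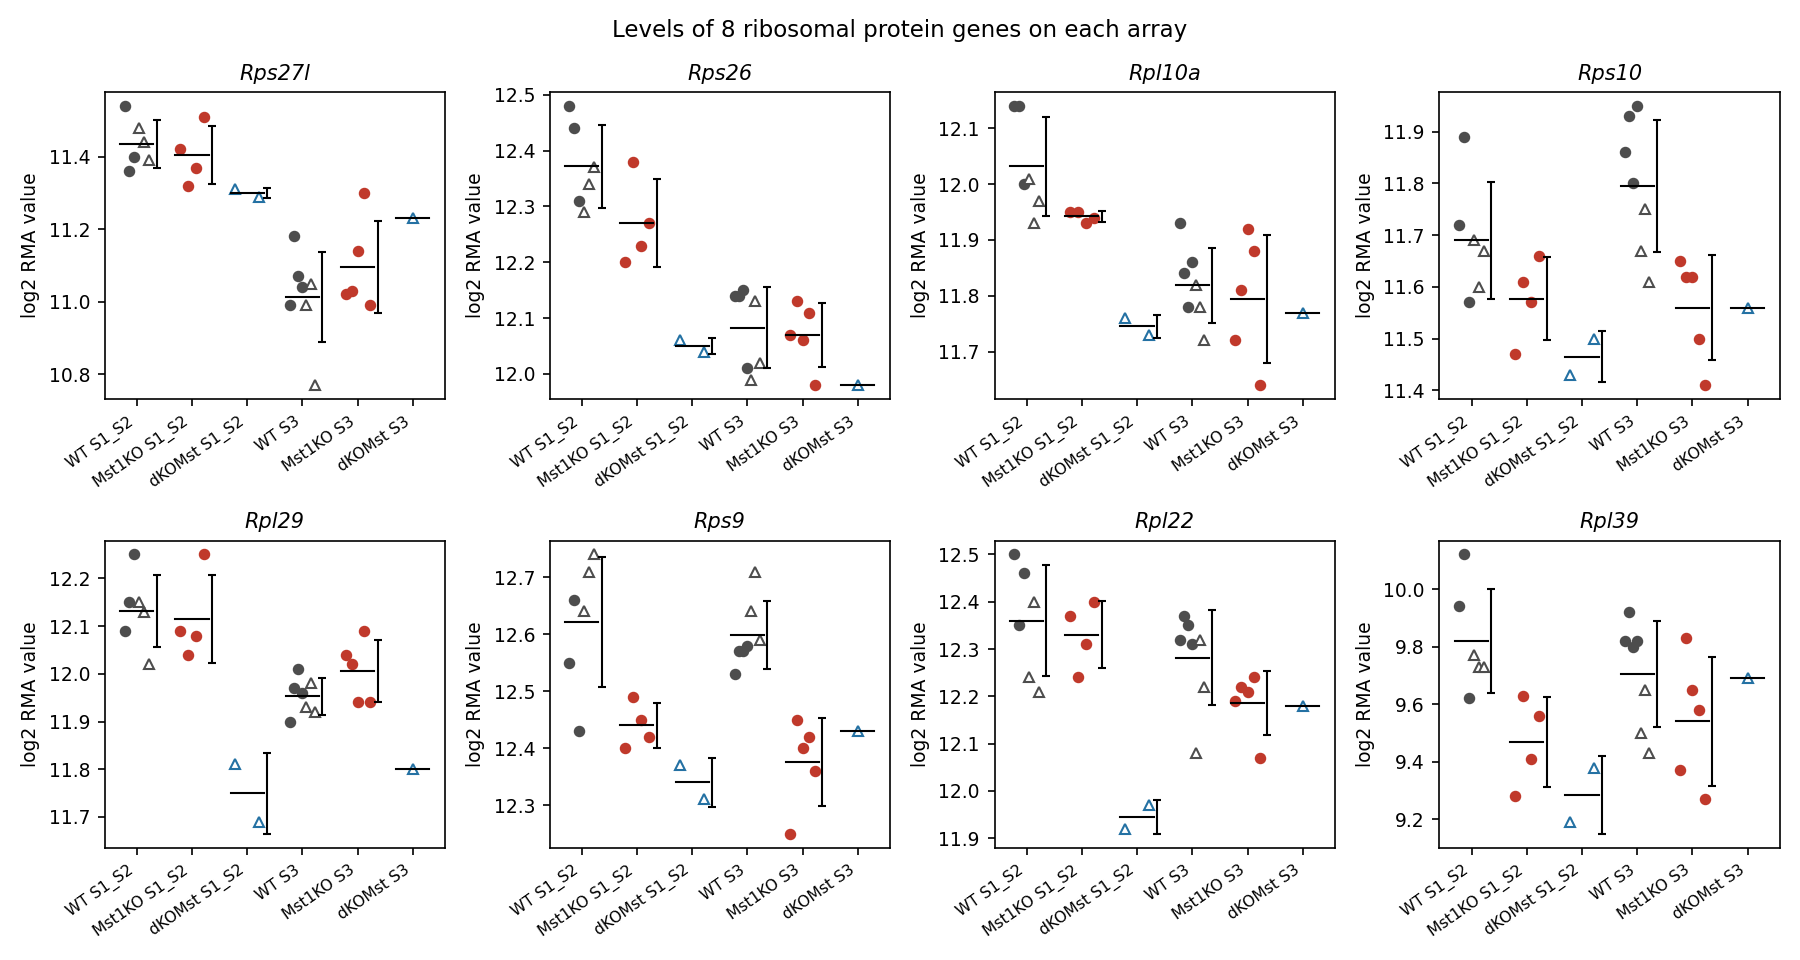
Log2 RMA value (y axis) of 8 ribosomal protein genes on each of 25 arrays, by genotype and stage. Filled circles are arrays of the first title number run and open triangles arrays of the second, the line is the mean and the bar the SD, and each panel has its own y range. Rps27l and Rps26 are lower on every WT S3 array than on every WT S1_S2 array, and Rpl29, Rps9 and Rpl22 are lower on both dKOMst S1_S2 arrays than on every WT S1_S2 array.

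With arrays left out in turn, the calls of Rps27l, Rps26, Rpl10a, Rpl15 and Rpl6 held in all 13 fits. Those of Rpl29 and Rpl28 were lost in 1 (without WT S1_S2 replicate 3) and 3 (without WT S1_S2 replicates 4 or 5 or WT S3 replicate 7), that of Rpl41 in 12 and that of Rpl31 in all 13.

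Within Mst1KO cells the same comparison of stages moved 1 gene past the test. Between Mst1KO S1_S2 and Mst1KO S3, 1 of 60 genes fell and none rose (12 lower at an unadjusted p under 0.05), where 10.2% of all clusters were called (4.62% of all clusters lower and 5.58% higher). That gene was again Rps27l, at 11.42, 11.32, 11.37 and 11.51 in Mst1KO S1_S2 and 11.02, 11.03, 11.14, 11.30 and 10.99 in Mst1KO S3. All stage 3 arrays were lower, and the fall was 0.31 ± 0.08 (limma adjusted p 0.013, and 0.058 without Mst1KO S1_S2 replicate 4). Rps26 differed by -0.20 ± 0.06 (limma adjusted p 0.051). The median over the members was -0.07 against -0.04 over all clusters, and 48 of 60 differences were below 0.

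Loss of Mst1 at stages 1 and 2 moved no ribosomal protein gene past the test. Of 60 genes 0 were called by limma in Mst1KO S1_S2 against WT S1_S2, where 0.522% of all clusters were called (0.194% lower and 0.329% higher), and 6 were lower and 0 higher at an unadjusted p under 0.05. The fitted difference was below 0 for 57 of 60 genes, among them all 21 of the small subunit, with a median of -0.07 against -0.01 over all clusters and over the other bright clusters. The smallest p belonged to Rpl39, an X-linked protein of the peptide exit tunnel. It read 9.28, 9.63, 9.41 and 9.56 in Mst1KO S1_S2, and in WT S1_S2 its lowest value was 9.62, its median 9.75 and its highest 10.12. The groups overlapped by 1 array, and the difference of -0.47 ± 0.12 had a limma adjusted p of 0.077. Within the first run Rpl39 differed by -0.42 (limma adjusted p 0.36), and without WT S1_S2 replicate 3 the difference was -0.57 and passed (limma adjusted p 0.012).

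Next in order of p were Rpl21, a large subunit protein, at -0.26 ± 0.08 (limma adjusted p 0.21), and Rpl23, which can bind the regulator Mdm2, at -0.16 ± 0.07 (limma adjusted p 0.48). Rpl21 read 11.53, 11.52, 11.54 and 11.58 on the Mst1KO S1_S2 arrays, and from 11.67 to 11.90 in WT S1_S2 (median 11.85), without overlap. Against the WT S1_S2 arrays of the first run alone, 8 of 60 genes (13.3%) were lower on all 4 Mst1KO arrays than on all 3 WT arrays and none was higher. Over all clusters 4.3% were lower and 3.98% higher in this way, and 8.26% of the other bright clusters.

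At stage 3 loss of Mst1 came with a fall of 1 of 60 genes, Rps10, with 16 lower and 0 higher at an unadjusted p under 0.05. Of all clusters 6.37% were called (2.64% lower and 3.73% higher, both of all clusters), and the members' share of 1.67% lies below that of all clusters. Rps10, a small subunit protein beside the mRNA entry that is marked by ubiquitin when ribosomes collide, read 11.65, 11.62, 11.62, 11.50 and 11.41 in Mst1KO S3. In WT S3 it read 11.61 to 11.95 (median 11.80, n = 7), or 11.80 to 11.95 in the first run, which holds all Mst1KO arrays. Within that run the groups did not overlap. The fall was 0.30 ± 0.07 (limma adjusted p 0.016), and 0.32 within the first run alone (limma adjusted p 0.047). Without Mst1KO S3 replicate 5 the adjusted p was 0.052.

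The next genes in order of p did not pass the test. Rpl36a, an X-linked large subunit protein, differed by -0.20 ± 0.06 (limma adjusted p 0.053), Rpl21 by -0.24 ± 0.07 (limma adjusted p 0.056), Rps15 by -0.17 ± 0.06 (limma adjusted p 0.075) and Rps9 by -0.17 ± 0.06 (limma adjusted p 0.09). The difference was below 0 for 53 of 60 genes, with a median of -0.07 against -0.05 over all clusters and 0.02 over the other bright clusters. Among arrays of the first run, 12 of 60 genes (20%) were lower on all 5 Mst1KO arrays than on all 4 WT arrays and none was higher, against 4.64% of all clusters (3.85% higher) and 6.52% of the other bright clusters. The 12 included Rpl21, Rpl22, Rpl36a, Rplp1, Rps9 and Rps10. With a variance prior that follows intensity and is robust to outlying clusters, limma called 12 of 60 genes lower (20%) and none higher. It called 2.55% of all clusters lower in this comparison. In either direction it called 6.77% of all clusters and 18.3% of the other bright clusters.

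The effect of Mst1 loss was not shown to differ between the stages for any member, nor, which is the same contrast, the stage step between WT and Mst1KO. Of 60 genes 0 were called by limma for the difference of the Mst1KO effect at S3 from that at S1_S2, 0 had an unadjusted p under 0.05, and 0.158% of all clusters were called. The median was -0.01 against -0.03 over all clusters. The smallest p values were those of Rps19 (0.19 ± 0.09, limma adjusted p 0.55), Rpl10l (-0.22 ± 0.12, limma adjusted p 0.59) and Rps4l (-0.22 ± 0.14, limma adjusted p 0.65).

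Loss of both kinases at stages 1 and 2 gave the largest median shift of the family among the comparisons tested. In dKOMst S1_S2 against WT S1_S2, the fitted difference was below 0 for 60 of 60 genes, against 47.9% of all clusters and 127 of the 230 other bright clusters. The median was -0.19, against 0.01 over all clusters and -0.03 over the other bright clusters, and the members ranged from -0.41 to -0.06. By limma 2 of 60 genes fell (3.33%) and none rose, with 36 lower and 0 higher at an unadjusted p under 0.05. Of all clusters 0.923% were called (0.369% lower and 0.554% higher, both of all clusters). The median was -0.18 over the large subunit and -0.21 over the small.

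Rpl29 read 11.81 and 11.69 on the dKOMst arrays, below the lowest WT S1_S2 array at 12.02, and fell by 0.36 ± 0.08 (limma adjusted p 0.038). Rps9, a small subunit protein that binds ribosomal RNA early in assembly, read 12.37 and 12.31, below 12.43 to 12.74 in WT S1_S2 (median 12.65), and fell by 0.34 ± 0.08 (limma adjusted p 0.048). Both genes were lower on both dKOMst arrays than on all 6 WT S1_S2 arrays. Within the second run, which holds the dKOMst arrays and 3 WT S1_S2 arrays, the differences were of like size at -0.35 and -0.36, but did not pass (limma adjusted p 0.26 and 0.24). With 1 array left out in turn, the call of Rpl29 was lost in 4 of 8 fits (without WT S1_S2 replicates 4 or 5 or either dKOMst array) and that of Rps9 in 7 of 8 (all but the fit without WT S1_S2 replicate 3), where the differences stayed between -0.42 and -0.30 and between -0.37 and -0.31.

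Genes just short of the threshold included Rpl21, at 11.52 and 11.31 on the dKOMst arrays, with a difference of -0.41 ± 0.10 (limma adjusted p 0.051). Rpl22, a large subunit protein whose loss blocks the development of alpha-beta T cells in mice, read 11.92 and 11.97 against 12.21 to 12.50 in WT S1_S2 (median 12.37). The groups did not overlap, and the difference was -0.35 ± 0.09 (limma adjusted p 0.061). Rps19, the gene most often mutated in Diamond-Blackfan anaemia, read 10.77 and 10.74 against 10.92 to 11.23 (median 11.09), a difference of -0.35 ± 0.09 (limma adjusted p 0.078). Rps26 read 12.06 and 12.04 against 12.29 to 12.48, a difference of -0.28 ± 0.08 (limma adjusted p 0.12). Rps27l, the gene that fell furthest between the WT stages, read 11.31 and 11.29 and differed by -0.10 ± 0.10 (limma adjusted p 0.83).

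Of 60 genes, 57 (95%) were lower on both dKOMst S1_S2 arrays than on all 3 WT S1_S2 arrays of the second run, and none was higher. The same held for 13.1% of all clusters (15.7% were higher) and for 41.7% of the other bright clusters. Against all 6 WT S1_S2 arrays it held for 49 members (81.7%), for 6.68% of all clusters (7.66% higher) and for 25.2% of the other bright clusters. With the variance prior that follows intensity, limma called 26 of 60 genes lower (43.3%), against 0.752% of all clusters lower. In either direction it called 1.54% of all clusters and 17.4% of the other bright clusters. Among those 26 were Rpl5, Rpl22, Rps4x, Rps19 and Rps26. So the direction was shared by the whole family, while the number of genes that passed ranged from 0 to 26 with the settings, and every statement on this group rests on 2 arrays.

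**Figure D3:**
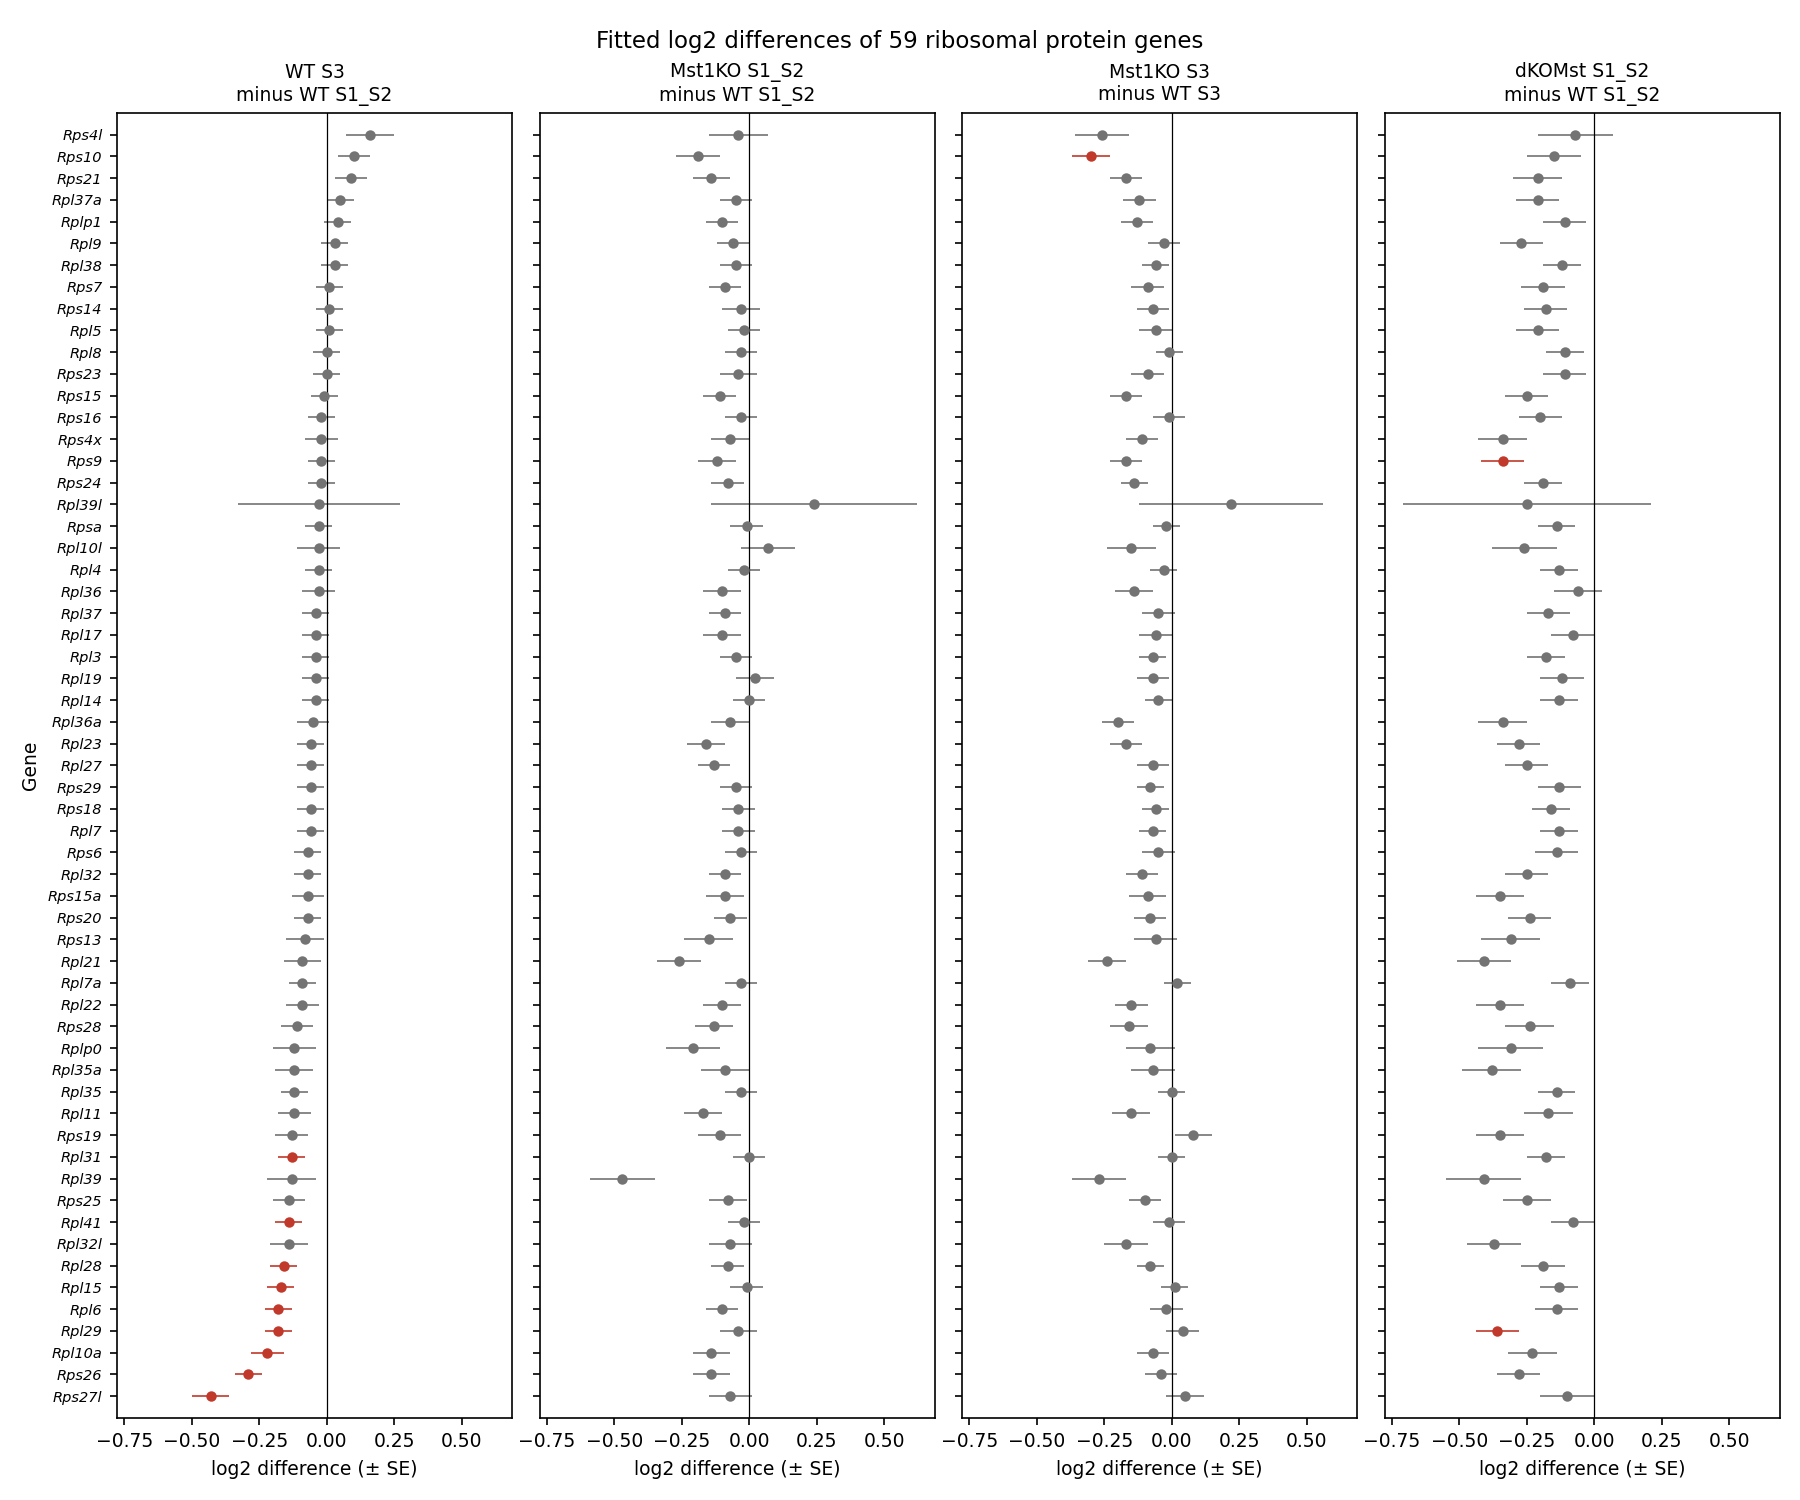
Fitted log2 differences (x axis, point and SE) of 59 ribosomal protein genes (y axis, ordered by the difference between WT stages, Rpl3l left out) in 4 comparisons on a common scale. Red points passed the test (limma, adjusted p under 0.05), 9 in WT S3 against WT S1_S2, 0 in Mst1KO S1_S2, 1 in Mst1KO S3 and 2 in dKOMst S1_S2, where all points lie left of 0.

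The dKOMst S3 array has no replicate, so its values are given as differences. Set against the mean of the 3 WT S3 arrays of the second run, 0 of 60 genes differed by 0.5 or more, where 6.42% of all clusters did. The median was -0.03 against 0.00 over all clusters, with members from -0.21 (Rps9) to 0.30 (Rps27l). Of 60 genes 29 (48.3%) lay below all 3 WT arrays and 12 above, against 26% of all clusters below, 26.6% above, and 25.2% of the other bright clusters below. Rps9 read 12.43 against 12.59 to 12.71, Rpl29 read 11.80 against 11.92 to 11.98 and Rps6 read 12.32 against 12.40 to 12.43. Rps27l, at 11.23, lay above the WT range of 10.77 to 11.05. In the model over all arrays, which assumes that this lone array varies like the other groups, limma called 0 of 60 members against WT S3 (1 at an unadjusted p under 0.05) and 27 of all clusters, with 43 members below 0 and a median of -0.04.

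The 2 title number runs differed little over the family. With genotype and stage in the fit, 0 of 60 genes were called by limma between the runs (4 higher and 6 lower in the second at an unadjusted p under 0.05), where 6.13% of all clusters were called. The median was 0.00 against -0.04 over all clusters. The smallest p values were those of Rplp0 (0.21 ± 0.08, limma adjusted p 0.1), Rpl36 (-0.16 ± 0.06, limma adjusted p 0.11) and Rpl39 (-0.24 ± 0.09, limma adjusted p 0.12). Rplp0, the base of the stalk that recruits elongation factors, is often used as a reference gene, and it read 10.56 to 11.14 in WT S1_S2 of the first run and 10.97 to 11.19 in the second. In WT S1_S2 the family's mean deviation was 0.070 ± 0.044 in the first run and 0.093 ± 0.027 in the second (SD, n = 3 each), and in WT S3 it was 0.024 ± 0.026 (n = 4) and 0.004 ± 0.025 (n = 3).

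The members known for roles beyond protein synthesis that were followed in each comparison did not pass in the model used throughout. The variance prior that follows intensity called Rpl5 in dKOMst S1_S2 and between the runs, and Rplp1 in Mst1KO S3. It also called Rpl22 in Mst1KO S3, in dKOMst S1_S2 and between the runs, and Rps19 in dKOMst S1_S2. Rpl5 and Rpl11, which with a small ribosomal RNA bind Mdm2, differed by -0.21 ± 0.08 and -0.17 ± 0.09 in dKOMst S1_S2 (limma adjusted p 0.27 and 0.55) and by 0.01 ± 0.05 and -0.12 ± 0.06 between the WT stages (limma adjusted p 0.92 and 0.21). In Mst1KO they differed by -0.02 and -0.17 at S1_S2 and by -0.06 and -0.15 at S3, and none of these passed. Rps6, the substrate of the kinases below mTOR, differed by -0.14 ± 0.08 in dKOMst S1_S2 (limma adjusted p 0.57), by -0.07 between the WT stages and by -0.03 and -0.05 in Mst1KO at S1_S2 and S3. Rpsa, also known as the laminin receptor, differed by -0.14 ± 0.07 in dKOMst S1_S2 (limma adjusted p 0.51), by -0.03 between the WT stages and by -0.01 and -0.02 in Mst1KO. Rplp0 differed by -0.31 ± 0.12 in dKOMst S1_S2, by -0.21 ± 0.10 in Mst1KO S1_S2 and by -0.08 ± 0.09 in Mst1KO S3 (limma adjusted p 0.33, 0.55 and 0.63), while Rplp1, a stalk tip protein, differed by -0.11, -0.10 and -0.13 (limma adjusted p 0.72, 0.74 and 0.19).

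The X-linked members were looked at with the sex of the arrays in view, because 4 Mst1KO arrays lacked Y-linked signal. With a term for that signal, Rpl39 differed by -0.51 ± 0.13 in Mst1KO S1_S2 and by -0.30 ± 0.11 in Mst1KO S3 (limma adjusted p 0.12 and 0.13). Rpl36a differed by -0.11 ± 0.08 and -0.23 ± 0.07 (limma adjusted p 0.82 and 0.054), and Rps4x by -0.10 ± 0.08 and -0.14 ± 0.07 (limma adjusted p 0.83 and 0.25). In dKOMst S1_S2, without that term, Rps4x read 11.78 and 11.80 against 11.96 to 12.19 in WT S1_S2, a difference of -0.34 ± 0.09 (limma adjusted p 0.064). Rpl36a read 11.61 and 11.68 there against 11.90 to 12.10 in WT S1_S2, also -0.34 ± 0.09 (limma adjusted p 0.064).

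Of the paralogues counted apart, only Rps27l passed a test in the comparisons made. Rpl39l, the autosomal paralogue of Rpl39 known from testis, had the largest spread of all 60 genes, from 6.59 to 8.99 over 25 arrays, a range of 2.40. Both extremes lay in 1 group, Mst1KO S1_S2, with 6.59, 7.86, 8.99 and 7.92, and its within-group SD was 0.60 against a median of 0.06 over the members. Rpl10l, the testis paralogue of X-linked Rpl10, read 8.13 and 8.17 in dKOMst S1_S2 against 8.27 to 8.54 in WT S1_S2, a difference of -0.26 ± 0.12 (limma adjusted p 0.43). Rps4l, the autosomal paralogue of Rps4x, differed by -0.26 ± 0.10 in Mst1KO S3 (limma adjusted p 0.12) and by 0.16 ± 0.09 between the WT stages (limma adjusted p 0.26). Rpl3, the broadly used partner of Rpl3l, differed by -0.18 ± 0.07 in dKOMst S1_S2 (limma adjusted p 0.36), by -0.04 between the WT stages and by -0.05 and -0.07 in Mst1KO at S1_S2 and S3.

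The family varied little between arrays of a group and its members varied together. The median within-group SD was 0.06 over the members, 0.18 over all clusters and 0.07 over the other bright clusters. After the means of group and run were removed, the median Pearson correlation between 2 members over the 25 arrays was 0.27 (quartiles 0.08 and 0.43), and 83.2% of 1770 pairs were above 0. For 76 mitochondrial ribosomal protein genes the median was 0.15 and 70.5% of 2850 pairs were above 0. These correlations share the arrays' quality and normalization and are given as a description.

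Members were also split, as a description, by the TOP tract shown above. In dKOMst S1_S2 the median difference was -0.15 over the 18 members with a tract and -0.25 over the 29 without. Between the WT stages the medians were -0.07 and -0.05, with 4 genes called in each set, and in Mst1KO S3 both were -0.07.

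Other parts of the translation machinery were counted in the same fits, to be read beside the shares of all clusters called. These were 8.75% lower and 8.18% higher between the WT stages, and 3.73% higher and 2.64% lower in Mst1KO S3. In dKOMst S1_S2 they were 0.369% lower and 0.554% higher. Mitochondrial ribosomal proteins, which serve a separate ribosome in the mitochondrion, fell between the WT stages for 21 of 76 genes and rose for 1. Their median was -0.18. Mrps5 fell by 0.71 ± 0.11 and Mrpl52 by 0.61 ± 0.10 (limma adjusted p 4.8e-05 and 8.7e-05). In Mst1KO S3 9 of the 76 rose and 0 fell, with a median of 0.18, where the median of the 60 cytosolic genes was -0.07. Mrpl19 rose by 0.55 ± 0.13 and Mrpl16 by 0.53 ± 0.12 (limma adjusted p 0.017 and 0.013). In dKOMst S1_S2 0 of 76 were called, with a median of 0.02 against -0.19 for the cytosolic genes.

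Of the factors that assemble ribosomes in the nucleolus, 19 of 48 fell between the WT stages and 0 rose (median -0.21), with Pno1, a small subunit assembly factor, down by 0.76 ± 0.13 (limma adjusted p 0.00015). In Mst1KO S3 9 of 48 rose and 0 fell (median 0.16). Heatr1, needed for ribosomal RNA synthesis, rose by 0.85 ± 0.16, and Pno1 by 0.65 ± 0.15 (limma adjusted p 0.0032 and 0.012). In dKOMst S1_S2 0 of 48 were called, with a median of 0.05. Of 14 genes of RNA polymerase I and its factors, 1 fell between the WT stages (Polr1e, -0.51 ± 0.17, limma adjusted p 0.042) and 0 were called in Mst1KO S3 or dKOMst S1_S2, with medians of -0.01 and 0.02.

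Of 22 initiation factors 6 fell between the WT stages (median -0.11), among them the cap-binding protein gene Eif4e by 0.48 ± 0.10 (limma adjusted p 0.0015), and 3 rose in Mst1KO S3 (median 0.05), among them Eif3l by 0.35 ± 0.07 (limma adjusted p 0.0076). In dKOMst S1_S2 0 of 22 were called, with a median of -0.09. Of 7 elongation factors 1 fell between the WT stages (Eif5a, by 0.15 ± 0.05, limma adjusted p 0.049), 1 fell in Mst1KO S3 (Eef1d, by 0.25 ± 0.07, limma adjusted p 0.028) and 0 were called in dKOMst S1_S2 (median -0.11). The 1 of 7 elongation factors and 1 of 14 RNA polymerase I genes that fell between the WT stages are near the share of all clusters called lower there (8.75%). Of 8 other genes known for TOP mRNAs, 4 fell between the WT stages (median -0.22), among them the histone chaperone gene Nap1l1 by 0.44 ± 0.06 (limma adjusted p 4e-06). In dKOMst S1_S2 2 of 8 fell, Btf3 by 0.36 ± 0.08 and Pfdn5 by 0.39 ± 0.09 (limma adjusted p 0.032 and 0.036), and the list's median of -0.18 was near the -0.19 of the ribosomal proteins. In Mst1KO S1_S2 0 genes of these 6 lists were called, and their medians lay between -0.10 and 0.00.

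**Figure D4:**
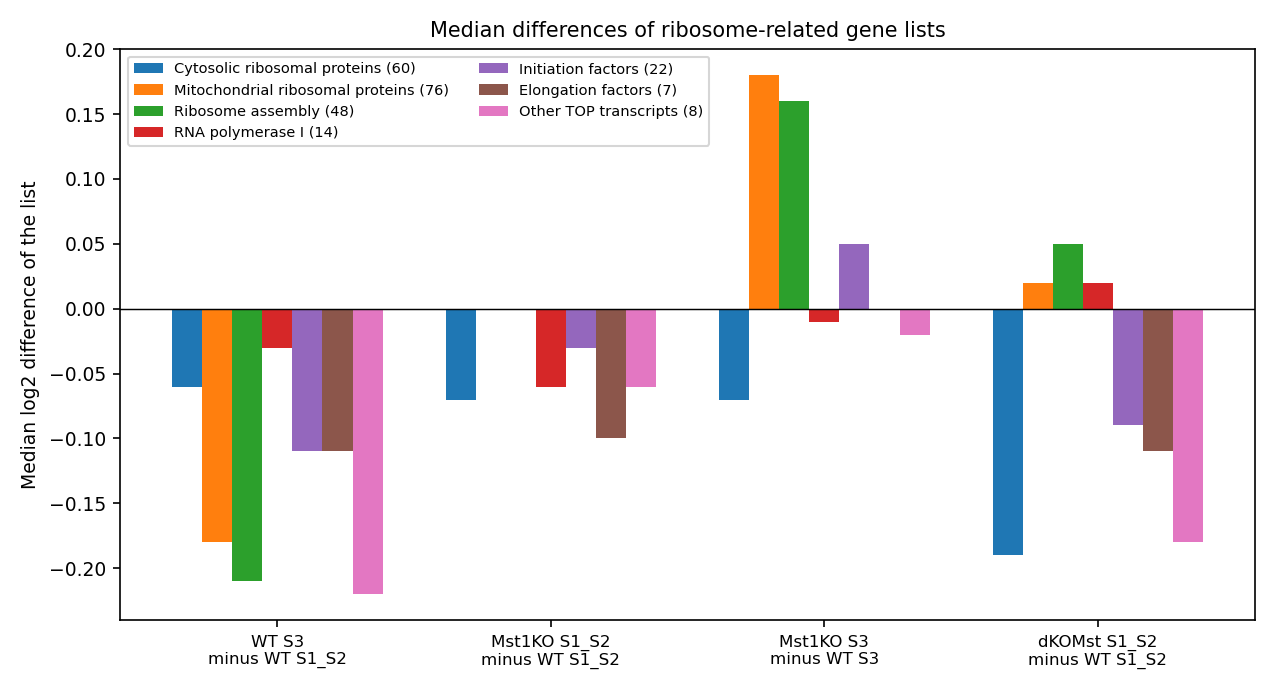
Median fitted log2 difference (y axis) of the 60 cytosolic ribosomal protein genes and 6 lists of the translation machinery, with the number of genes in brackets, in 4 comparisons. In Mst1KO S3 mitochondrial ribosomal proteins and assembly factors lie at 0.18 and 0.16 and cytosolic ribosomal proteins at -0.07, and in dKOMst S1_S2 cytosolic ribosomal proteins and other TOP transcripts lie at -0.19 and -0.18.

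Of the ribosomal and ribosome-bound proteins outside the symbol rule, 7 had a cluster. Between the WT stages 1 of them fell, Rpl36al, the autosomal copy of Rpl36a, by 0.16 ± 0.05 (limma adjusted p 0.04). Of all clusters 8.75% were called lower there. In dKOMst S1_S2 0 of 7 were called, with differences from -0.31 (Rps27rt) to 0.06 (Rps19bp1). Of 19 genes that control ribosomal protein supply, 6 rose and 1 fell between the WT stages, against 8.18% and 8.75% of all clusters. Myc, which drives ribosome production, rose by 0.41 ± 0.09, and the Myc antagonist gene Mxd1 rose by 1.34 ± 0.09 (limma adjusted p 0.002 and 1.6e-10). In Mst1KO S3 Mxd1 fell by 0.55 ± 0.11 and Eif4ebp1, an inhibitor of cap-dependent initiation, rose by 0.37 ± 0.10 (limma adjusted p 0.0033 and 0.026). In dKOMst S1_S2 Mxd4, another Myc antagonist, fell by 0.53 ± 0.12 (limma adjusted p 0.031).

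Other features of the cells moved with these comparisons, and their part in the ribosomal protein differences was not tested. Genes of the G2 and M phases fell between the WT stages for 19 of 19 (median -2.00) and rose in Mst1KO S3 for 13 of 19 (median 0.83), where the ribosomal protein median was -0.07. In dKOMst S1_S2 0 of 19 were called (median -0.27), and their mean level was 8.96 to 9.35 against 8.52 to 9.57 in WT S1_S2. Markers of NK and innate lymphoid cells were higher in dKOMst S1_S2 for 2 of 7, Fcer1g by 2.06 and Eomes by 0.91, and the list ran from -0.95 to 2.06 (median 0.34), with a mean level of 8.28 to 8.30 against 7.58 to 8.10 in WT S1_S2. Myeloid and dendritic cell markers were higher there for 2 of 11, Itgam by 0.93 and Lyz2 by 0.70, with a mean level of 6.59 to 6.65 against 6.35 to 6.61, and 2 of the 11 were above the negative controls on no array. Between the WT stages 6 of 7 NK markers and 5 of 11 myeloid markers rose, with mean levels of up to 9.39 and 7.05 in WT S3. Of all clusters 8.18% were called higher between the WT stages and 0.554% in dKOMst S1_S2. B cell, erythroid and thymic epithelial markers had 0 genes called between the WT stages or in dKOMst S1_S2.

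Markers of iNKT subsets show how far the stage groups were separated. NKT1 genes rose between the WT stages for 14 of 14 (median 3.19). Their mean level was 8.16 to 9.08 in WT S1_S2 and 11.10 to 11.32 in WT S3. NKT2 genes fell for 8 of 8 (median -1.69) and NKT17 genes for 3 of 10 (median -0.67). The stage groups thus differed in subset markers too, and the part of this in the ribosomal protein differences was not tested. In dKOMst S1_S2 the mean NKT1 level was 8.48 to 8.73 and the NKT2 level 11.56 to 11.66, against 11.72 to 11.95 in WT S1_S2. There 1 of 14 NKT1 genes and 1 of 8 NKT2 genes fell and none rose: Klrb1c, which codes for NK1.1, by 1.18 and Il4 by 0.90 (limma adjusted p 0.02 and 0.0026). The NKT1 list ran from -1.18 to 1.22 (median 0.16) and the NKT2 list from -0.90 to 0.14 (median -0.06). In Mst1KO S3 the NKT1 gene Gzma fell by 2.08 and Ifng rose by 1.07 (limma adjusted p 9.2e-06 and 0.016), and the NKT2 genes Il4 and Izumo1r fell by 0.72 and 0.31 (limma adjusted p 0.00054 and 0.023). No other gene of the 14 and 8 was called there. The NKT1 list ran from -2.08 to 1.07 (median -0.01) and the NKT2 list from -0.72 to 0.75 (median -0.16). In Mst1KO S1_S2 1 of 14 NKT1 genes rose, Ifng by 1.48 (limma adjusted p 0.012), with a list median of 0.02. There 2 of 8 NKT2 genes fell, Il4 by 0.78 and Izumo1r by 0.63 (limma adjusted p 0.0025 and 0.00063), with a list median of -0.21. No NKT17 gene was called there, but all 10 differences were above 0, from 0.15 to 1.76 (median 0.92). The mean NKT17 level was 10.20 to 10.37 against 8.91 to 10.05 in WT S1_S2. The NKT17 list rose for 3 of 10 genes in Mst1KO S3 (median 0.69), and 1 of 7 double-positive thymocyte markers rose there (median 0.16). Of all clusters 3.73% were called higher in Mst1KO S3.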

How the data were processed

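The deposited values are log2 signals of Clariom S arrays of amplified RNA. Per the submitters' processing notes, the authors ran RMA, with Affymetrix Expression Console 1.1 as the software. Library files and genome build: not given in the sources used here. Altogether the table held 28846 items, of which 6640 controls were left out. Of the 22206 clusters tested, 19572 have 1 gene symbol in the platform annotation, 0 have several and 2634 have none. No further normalization was applied.

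One linear model over all 25 arrays, with 6 groups and the title number run (18 residual degrees of freedom), was fitted in R 4.3.3 using limma 3.58.1, lmFit then eBayes, with Benjamini-Hochberg adjustment over all clusters and calls at an adjusted p under 0.05. The code was tested on simulated data. The members and lists were chosen with earlier results of these data known. Named were all called members (or, where none was called, the 3 with the smallest p), members with known special roles, paralogues and X-linked members in each comparison, and up to 3 called genes per other list. Members shown just short of the threshold were added after their values were seen. Rpl10 and Rps27 are not analysed here.

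Alternatives left out the run term or made it a random block, fitted only the groups compared or each run alone, normalized again, centred the arrays, dropped dim clusters, weighted arrays, changed the variance prior, added a sex term, dropped arrays without Y-linked signal, changed the members, or left out each array in turn.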

Additional observations from a re-analysis of the deposited data

Results flagged for a closer look

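In 120 groups of 4 to 7 values over 29 ribosomal protein genes, 3 arrays stood apart from the rest of their group by Dixon's test, which by chance marks about 1 group in 20. Rpl3 read 12.49 on Mst1KO S3 replicate 1 against 12.59 to 12.62 on the other arrays of that group (n = 5). Rpl41 read 13.16 on WT S1_S2 replicate 3 against 13.31 to 13.35 (n = 6), and without that array its fall between the WT stages kept its call. Rps6 read 12.31 on WT S3 replicate 1 against 12.40 to 12.44 (n = 7). All 3 were low values, and no cause was tested.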

How the results depend on the processing

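No setting turned the direction of a called member. Family medians kept their sign except those near 0, from -0.02 to 0.02 for the stage dependence and from -0.03 to 0.03 between runs. No paired analysis was possible by replicate number, because the replicate numbers only name the arrays. The title numbers may still pair arrays of the stages. Within each run, those of S3 follow those of S1_S2 at a constant step for most arrays. Replicates 3 and 4 lacked Y-linked signal in both Mst1KO groups. Whether such arrays share an animal is not given, and no fit by title number pairs was made. The stage comparisons and the stage dependence treated the arrays as independent in the model used throughout, so their p-values take no account of such pairs. The median over the members in dKOMst S1_S2 was -0.19, -0.14 after a second quantile normalization and -0.26 without members of mean 12 or above. That in Mst1KO S3 was -0.03 with arrays centred on their median and -0.14 without those bright members, and that between Mst1KO stages was -0.02 with arrays so centred. The count of members called in dKOMst S1_S2 was 6 without the run term, 5 with the run as a random block, 5 after quantile normalization, 8 without clusters near the negative controls, 8 with array weights, 26 with the variance prior that follows intensity and 1 with a sex term. It was 0 in each of these 5: only the groups compared, the second run alone, arrays with Y-linked signal alone, no members of mean 12 or above, and arrays centred on the other bright clusters (an alternative chosen after seeing the data). Leaving out the bright members removes Rpl29 and Rps9, the only members called in the model used throughout, so that 0 was fixed in advance. Between the WT stages the count was 3 with only the groups compared, 2 in the first run, 1 in the second and 2 without bright members. The variance prior that follows intensity gave 12 there (20% of members), all lower. In either direction that prior called 17.3% of all clusters (9.01% lower) and 49.1% of the other bright clusters. In Mst1KO S3 the count was 0 with only the groups compared, 4 after quantile normalization, 4 without dim clusters and 2 with array weights. It was 12 with the intensity prior, 0 without the 4 arrays lacking Y-linked signal and 2 centred on bright clusters. Between Mst1KO stages it was 4, 5, 3, 10 and 0 in the same order from quantile normalization to the arrays with Y-linked signal. Without the paralogues it was also 0, because that removes Rps27l, the only member called there in the model used throughout. The 10 called with the intensity prior were all lower (16.7% of members). That prior called 10.7% of all clusters there (4.83% lower) and 30.4% of the other bright clusters. In Mst1KO S1_S2 the count was 1 (Rpl39) after quantile normalization or with array weights. Between runs it was 2 after quantile normalization and 3 with the intensity prior. Those 3 were 5% of members, where that prior called 6.67% of all clusters and 23.5% of the other bright clusters. Shares of all clusters under settings other than the intensity prior are not given here. With arrays left out in turn, counts ranged from 6 to 7 (WT stages), 0 to 1 (Mst1KO S1_S2), 0 to 3 (Mst1KO S3), 0 to 3 (Mst1KO stages), 0 to 4 (dKOMst S1_S2), 0 to 0 (stage dependence) and 0 to 1 (runs), and medians from -0.07 to -0.05, -0.08 to -0.06, -0.09 to -0.06, -0.08 to -0.06, -0.20 to -0.18, -0.02 to 0.00 and -0.00 to 0.01. For the dKOMst S3 array the count past 0.5 stayed 0. Over 3168 values of named members under the settings, 3013 kept their side of the threshold, 94 lost a call, 41 gained one and 20 moved by more than the spread. The cause of these moves was not tested.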
